A study of Rattus norvegicus with 6 samples.

Results

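In brain microvascular endothelial cells cultured from rats (rBMECs), the glycocalyx genes examined were the syndecans Sdc1, Sdc2, Sdc3 and Sdc4, the glypicans Gpc1 and Gpc4, the hyaluronan genes Has2, Cd44 and Hyal2, and the sialomucin gene Podxl. They were taken by name from the table of read counts, which lists 33566 genes, and all 10 were found there once, as protein-coding genes. The RNA-seq comprised 6 libraries, 3 from rBMECs treated with homocysteine (Hcy) and 3 from rBMECs given vehicle (Veh). The Hcy cells received 100 μM for 24 h according to their labels, whereas the treatment notes also speak of a 50 μM solution. The Veh cells received sterile water. Cells of both groups came from the cerebral cortex (the labels; the study's methods say forebrain) of SD rats 18 to 22 days old, were selected in culture for endothelial cells and were treated after 1 passage, and the sources used here do not say whether equal replicate numbers mark a shared isolation.

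The glycocalyx is the sugar-rich coat on the blood side of the endothelium. Its membrane proteoglycans are core proteins that carry heparan sulfate or chondroitin sulfate chains: syndecans cross the membrane, and glypicans are held by a lipid anchor. Hyaluronan is a long sugar chain without a core protein, made at the plasma membrane by hyaluronan synthases, held by receptors such as CD44 and cut by hyaluronidases. In brain capillaries this coat lies in front of the tight junctions of the blood–brain barrier and limits contact of blood cells and large molecules with the cell surface.

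Of the 10 genes, 1 differed between Hcy and Veh. Cd44, which encodes a hyaluronan receptor, was downregulated in Hcy, to 14.4 ± 0.739 CPM against 27.0 ± 0.543 CPM with vehicle (mean ± SD, n = 3 each), where CPM gives a gene's counts for each 1000000 counts of the TMM-scaled library. The other 9 genes, among them the abundant Podxl and Sdc3, did not pass the test. Changes were called at an adjusted p of at most 0.05 in the quasi-likelihood test of edgeR, with p-values adjusted by Benjamini-Hochberg over all 14603 genes whose libraries together held 10 counts or more. All 10 genes had enough counts to be tested. By this rule 2.34% of all tested genes changed, 1.32% higher and 1.01% lower in Hcy, beside 1 of 10 here, which was lower. When the size of the log2 change also had to reach 1 in either direction, 0.486% of all tested genes passed and 0 of the 10, by edgeR and by DESeq2, and 1 of the 10, again Cd44, had an unadjusted p of at most 0.05 in edgeR against 13.4% of all tested genes.

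The libraries held 14024997 to 16764584 counts on genes, so that 3 counts, taken as the floor of detection, equal 0.178 to 0.215 CPM. On the second principal component, which held 26.2% of the variance, Veh replicate 3 lay at 30.4 and Veh replicates 1 and 2 at -15.9 and -19.0, so results are also given without this library where they turn on it. Endothelial markers fixed for this purpose summed to 8590 to 9851 CPM in Veh and 10102 to 10513 CPM in Hcy over 14 genes. Among them Cldn5, the main claudin of brain endothelial tight junctions, was at 0 in all libraries. The study shows the protein of this gene in rBMECs by Western blot. Why no reads were counted on the gene was not tested, so its absence from the cells is not concluded. Of the 13 endothelial markers tested, 7 had log2 changes above 0 and 6 below, and 0 had an adjusted p of at most 0.05 (edgeR). The groups did not overlap in 4 that were higher and 3 that were lower in Hcy, beside 20.1% of all tested genes. An unadjusted p of at most 0.05 was reached by 6 of the 13, beside 13.4% of all tested genes (edgeR). Sums over the pericyte, astrocyte, microglia and leukocyte, and neuron lists stayed at or under 9.77 CPM in every library, and the microglia and leukocyte marker Ptprc was at 0 counts in all of them.

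Upstream sequences are shown for Cd44, as the gene that fell, and for Podxl, as the gene with the highest level per length. Both are the 250 bases before the RefSeq start in the rat build GRCr8, 5′ to 3′ on the gene's strand, which is minus for both, with Cd44 at chr3:109699425-109699674 and Podxl at chr4:61149132-61149381. Capitals mark CG dinucleotides, the sites at which mammalian DNA is methylated.
Cd44: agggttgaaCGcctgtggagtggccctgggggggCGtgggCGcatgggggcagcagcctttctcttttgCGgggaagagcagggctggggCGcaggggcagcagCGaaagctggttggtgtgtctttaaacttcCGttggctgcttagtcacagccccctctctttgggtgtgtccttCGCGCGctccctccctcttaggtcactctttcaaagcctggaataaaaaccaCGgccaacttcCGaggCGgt
Podxl: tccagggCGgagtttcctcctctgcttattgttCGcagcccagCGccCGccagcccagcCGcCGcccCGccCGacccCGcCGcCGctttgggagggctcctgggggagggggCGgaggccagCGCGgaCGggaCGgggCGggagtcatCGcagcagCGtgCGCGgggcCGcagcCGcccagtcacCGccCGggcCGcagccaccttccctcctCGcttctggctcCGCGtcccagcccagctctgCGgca

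RefSeq upstream sequences matched 7 of the 10 genes, and Sdc2, Gpc1 and Has2 were not among them. Cd44 had 13 CG dinucleotides in these bases and Podxl had 30, against a median of 5 over 33469 upstream sequences of the same length. Among the 7 genes Hyal2 had the fewest, with 12, and Sdc3 the most, with 48, and 99.9% of all upstream sequences had at most that many. The GC box, letters GGGCGG on either strand, was found in 6 of the 7 genes and in 30.5% of all sequences, and Cd44 was the gene without a match. The letters TATAAA, found in 12.9% of all sequences, TGANTCA (the AP-1 site), found in 6.34%, and CACGTG (the E-box), found in 5.59%, each searched on both strands, had 0 matches in the 7 genes. These matches describe letters in a window, and methylation and factor binding at these genes were not analysed here.

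Levels of different genes were compared as CPM per kb of the gene length listed in the deposited table. In Veh the order was Podxl at 104 ± 11.8 (SD, n = 3), Sdc3 at 97.5 ± 7.63, Hyal2 at 50.1 ± 1.76, Gpc4 at 24.2 ± 0.911, Cd44 at 6.79 ± 0.137, Sdc4 at 2.18 ± 0.813, Sdc1 at 1.52 ± 0.260, Sdc2 at 0.333 ± 0.0273, Has2 at 0.196 ± 0.0379 and Gpc1 at 0.142 ± 0.0755 CPM per kb. The same order held in Hcy. Neighbours whose Veh libraries overlapped were Podxl and Sdc3, Sdc4 and Sdc1, and Has2 and Gpc1, so the order within these pairs was not larger than the spread. Podxl stood above 94.0% of all tested genes by its Veh level per kb, Cd44 above 51.4% and Gpc1 above 8.01%. Within the syndecans, Sdc3 made up 94.6 to 96.9% of the summed level per kb in Veh libraries and 95.9 to 97.0% in Hcy libraries, and within the glypican pair Gpc4 made up at least 99.1% in every library.

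**Figure D1:**
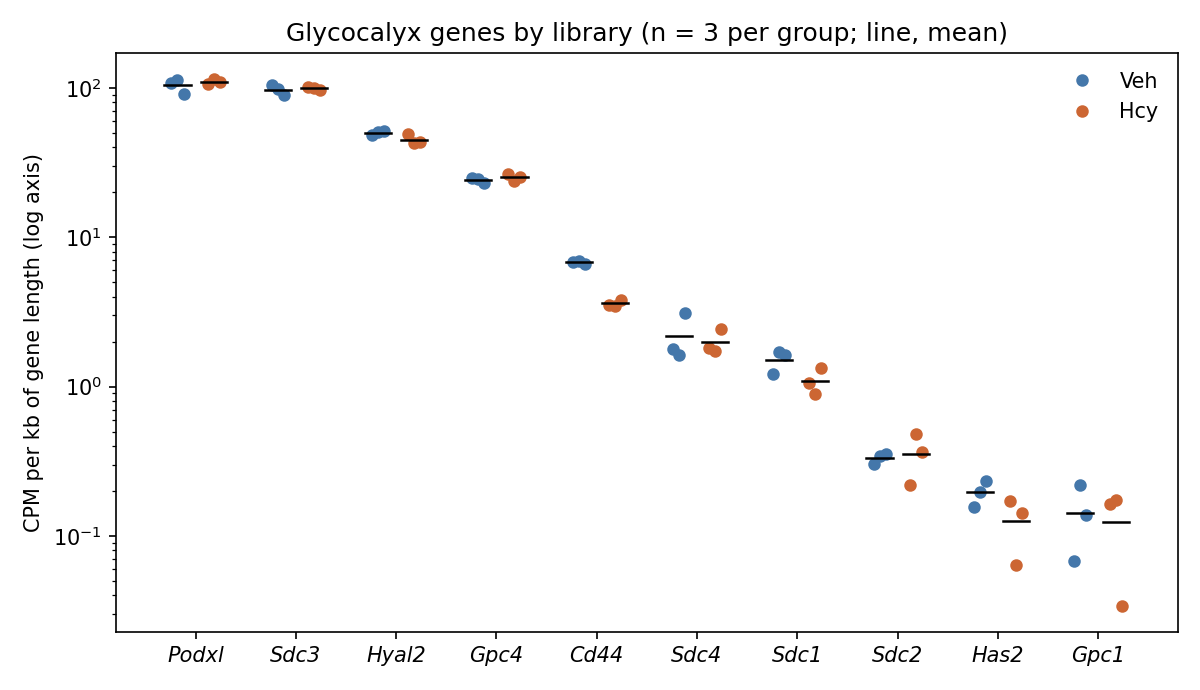
Level of each glycocalyx gene in CPM per kb of gene length on a log axis, with 1 point per library, 3 for Veh in blue and 3 for Hcy in orange, and a line at the mean. Podxl and Sdc3 lie near 100 in both groups, Gpc1 and Has2 under 0.25, and the Veh and Hcy points of Cd44 are apart, at 6.66 to 6.93 and 3.48 to 3.83.

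Cd44, which the table lists on chromosome 3, minus strand, 92696313 to 92783658, had 26.95, 27.5 and 26.4 CPM in Veh replicates 1 to 3 and 14.1, 13.8 and 15.2 CPM in Hcy replicates 1 to 3. Every Hcy library lay below every Veh library, as was the case for 9.27% of all tested genes in this direction. The log2 change was -0.91 (standard error, SE, 0.10, 95% interval -1.12 to -0.69, edgeR, adjusted p = 0.00235), a ratio of 0.533 with an interval of 0.459 to 0.620. By p it was gene 36 of the 14603 tested. Its fold lay short of a log2 change of 1, and the interval includes that value. The spread within groups was small, with a coefficient of variation of 2.01% in Veh and 5.14% in Hcy. Without Veh replicate 3 the log2 change was -0.92 (edgeR, adjusted p = 0.000754), and with any 1 library left out the adjusted p was at most 0.0275. Reads are counted per gene, so the splice forms of Cd44, which differ in their extracellular part, are not resolved.

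Of the markers of other cell types, 3 of 4 tested smooth muscle genes and 2 of 4 tested epithelial genes fell, as Cd44 did. The smooth muscle list summed to 1120 to 1348 CPM in Veh and 673 to 702 CPM in Hcy, and the genes that fell were Tagln, Acta2 and Cnn1, with log2 changes of -0.88, -0.64 and -1.39, while Myh11, which defines contractile smooth muscle, had a mean of 1.23 CPM in Veh and a log2 change of -0.04 in Hcy and Myocd was at or near 0. The epithelial list summed to 551 to 705 CPM in Veh and 384 to 417 CPM in Hcy, nearly all of it Krt7, which fell by 0.61 on the log2 scale, and Cldn4 fell too. Of the other 2 epithelial genes tested, both near the floor, Krt8 had a log2 change of -0.28 and Cdh1 of 0.55 (edgeR, adjusted p = 0.945 and 0.903), and Epcam was at or near 0 in all libraries. The fibroblast list overlapped, at 63.5 to 91.2 CPM in Veh and 44.9 to 68.7 CPM in Hcy. Of its 4 tested genes 3 had log2 changes above 0, and 0 had an adjusted p of at most 0.05 (2 at an unadjusted p, edgeR). Col1a1, most of the sum, was the one below, and every Hcy library lay below every Veh library. It was at 69.0 CPM in Veh and 48.0 CPM in Hcy (log2 change -0.52, edgeR, adjusted p = 0.264). The pericyte list was higher in every Hcy library, at 3.82 to 4.71 CPM in Veh and 5.37 to 7.99 CPM in Hcy, with 6 of 7 tested genes above 0 and 0 at an adjusted p of at most 0.05 (1 at an unadjusted p, edgeR), and the oligodendrocyte list stood at 11.3 CPM in every Veh library and 10.6 to 12.4 CPM in Hcy. Bulk libraries cannot tell fewer cells of a type from less RNA per cell, and the part of these markers in the Cd44 result was not tested.

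Hyal2, a membrane-anchored hyaluronidase that cuts long hyaluronan chains, lies on chromosome 8 from 116324040 to 116328978. It had 95.9, 101.6 and 102.4 CPM in Veh replicates 1 to 3 and 97.6, 85.9 and 86.2 CPM in Hcy replicates 1 to 3, and the groups overlapped through Hcy replicate 1. The log2 change was -0.15 (95% interval -0.33 to 0.03, edgeR, adjusted p = 0.470), which leaves a ratio between 0.794 and 1.02. Has2, a hyaluronan synthase listed on chromosome 7 from 96438046 to 96464049, had 11, 13 and 14 counts in Veh and 10, 4 and 10 counts in Hcy, or 0.817 ± 0.158 CPM (SD, n = 3) and 0.528 ± 0.233 CPM (SD, n = 3). The Hcy value of 4 counts was the lowest, and the groups overlapped. Its log2 change of -0.62 had an interval from -1.66 to 0.42 (edgeR, adjusted p = 0.641), or a ratio between 0.316 and 1.34, and was -0.31 without Hcy replicate 2. Per kb, Cd44 made up 11.4 to 12.3% of the sum of the 3 hyaluronan genes in Veh and 6.73 to 8.12% in Hcy, and Hyal2 87.4 to 88.2% and 91.6 to 92.9%.

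Sdc3, on chromosome 5 from 148923098 to 148956404, was the main syndecan of these cells. It had 508, 475 and 434 CPM in Veh replicates 1 to 3 and 488, 485 and 469 CPM in Hcy replicates 1 to 3. The Veh libraries enclosed the Hcy libraries, and the log2 change of 0.03 had a 95% interval of -0.14 to 0.19, or a ratio between 0.907 and 1.14 (edgeR, adjusted p = 0.927). Without Veh replicate 3, the lowest library, it was -0.031. Sdc1, the syndecan best known as a shed marker of glycocalyx damage, lies on chromosome 6 from 33885495 to 33908016. It had 3.74, 5.22 and 4.98 CPM in Veh and 3.23, 2.75 and 4.06 CPM in Hcy. The highest Hcy library was above the lowest Veh library, and the log2 change of -0.47 (95% interval -0.98 to 0.04) did not pass the test (edgeR, adjusted p = 0.432).

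Sdc4, a syndecan of focal adhesions on chromosome 3 from 160872503 to 160891190, had 4.45, 4.08 and 7.75 CPM in Veh replicates 1 to 3 and 4.52, 4.30 and 6.09 CPM in Hcy replicates 1 to 3. Replicate 3 was the highest library of either group, and the groups overlapped. The log2 change was -0.12 (95% interval -0.74 to 0.50, edgeR, adjusted p = 0.909), and it was 0.22 without Veh replicate 3 (adjusted p = 0.631). Sdc2, on chromosome 7 from 71572941 to 71686044, had 15, 16 and 15 counts in Veh and 9, 21 and 18 counts in Hcy. The Hcy counts lay on both sides of the Veh counts, with a log2 change of 0.09 and a 95% interval of -0.75 to 0.93 (edgeR, adjusted p = 0.954), and it was -0.18 without Hcy replicate 2. The table lists 2 other genes within Sdc2 and the microRNA gene Mir149 within Gpc1, all at 0 counts, and no gene overlapping the other 8.

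Gpc4, on the X chromosome from 139354155 to 139464798, was the main glypican of the cells. It had 70.6, 69.1 and 65.6 CPM in Veh and 74.97, 67.5 and 72.2 CPM in Hcy. The groups overlapped, and the log2 change of 0.06 had a 95% interval of -0.11 to 0.23, a ratio between 0.928 and 1.18 (edgeR, adjusted p = 0.794). Gpc1, the glypican described as a flow sensor of endothelium, lies on chromosome 9 from 99998275 to 100026818 and had 4, 12 and 7 counts in Veh and 8, 9 and 2 counts in Hcy. These counts were close to the floor of 3, and that of Hcy replicate 3 was under it. Its log2 change of -0.21 had an interval from -1.74 to 1.32 (edgeR, adjusted p = 0.939), and it was 0.26 without Hcy replicate 3 and 0.25 without Veh replicate 2.

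Podxl encodes podocalyxin, a sialomucin of the luminal membrane whose charged sugars keep surfaces apart, and lies on chromosome 4 from 58829060 to 58893170. It had 619.5, 649 and 519.8 CPM in Veh replicates 1 to 3 and 612, 654 and 624 CPM in Hcy replicates 1 to 3. Veh replicate 3 was the lowest library, and the other 5 lay within 612 to 654 CPM. The log2 change was 0.08 with a 95% interval of -0.12 to 0.28, a ratio between 0.921 and 1.21 (edgeR, adjusted p = 0.775), and it was -0.0083 without Veh replicate 3.

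**Figure D2:**
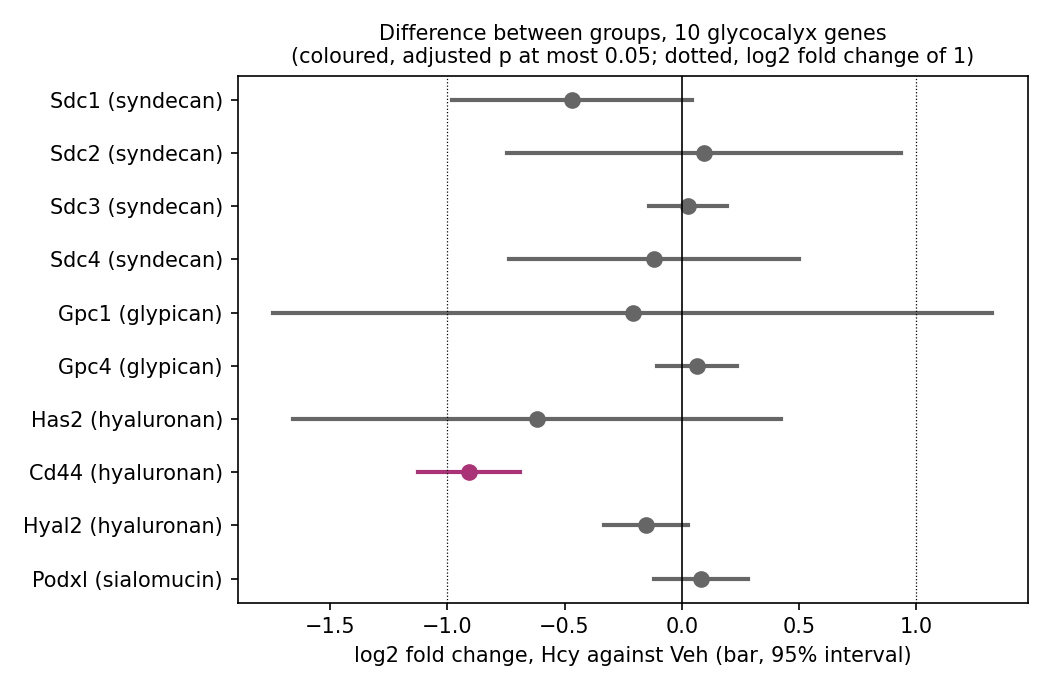
Log2 change of each glycocalyx gene in Hcy against Veh from edgeR, with its 95% interval as a bar and dotted lines at changes of 1 in either direction. Only Cd44, in colour, passed the adjusted p of 0.05, at -0.91, and the bars of Gpc1 and Has2 are the widest of the 10.

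Over the 10 genes, 4 log2 changes were above 0 and 6 below, with a median of -0.14 beside -0.02 for all tested genes. The 3 hyaluronan genes were all below 0, and 1 of them passed the test. The 4 syndecans had 2 above and 2 below 0, with a median of -0.05. For Sdc3, Gpc4, Hyal2 and Podxl the intervals leave ratios between 0.794 and 1.21. They are wider for Sdc1, at 0.507 to 1.03, Sdc4, at 0.600 to 1.41, Sdc2, at 0.596 to 1.91, Has2, at 0.316 to 1.34, and Gpc1, at 0.299 to 2.50. The groups did not overlap in 1 of the 10 genes, beside 20.1% of all tested genes, 10.8% higher and 9.27% lower in Hcy.

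The genes around these 10 were taken from 8 lists of proteoglycan cores, chain assembly, hyaluronan handling, surface glycoproteins, breakdown and cytoplasmic partners. Of 132 listed names, 125 were matched and gave 106 tested rows, of which 4 rose and 3 fell, or 6.60%, beside 2.34% of all tested genes. Those that rose were Mmp9, Mmp15, Sele and Mcam, and those that fell were Sulf1, Thbd and Slc9a3r2. The groups did not overlap in 21 rows that were higher and 12 that were lower in Hcy, these 7 among them, beside 20.1% of all tested genes. The median log2 change over the 106 rows was 0.03. An unadjusted p of at most 0.05 was reached by 24 of them, beside 13.4% of all tested genes (edgeR). By list these were 6 of 16 proteoglycan cores, 4 of 8 surface glycoproteins, 4 of 19 breakdown rows and 2 of 9 cytoplasmic partners. In heparan sulfate assembly they were 4 of 24, in chondroitin and dermatan sulfate assembly 3 of 15 and in hyaluronan handling 1 of 14. Only for Mmp9 did the call hold with any 1 library left out: without Hcy replicate 2, and likewise without Hcy replicate 3, it was the 1 gene that passed, 2 passed without Hcy replicate 1, 3 without Veh replicate 2, and 9 without Veh replicate 3, with Agrn and Extl3 beside the 7. Mcam, Sulf1 and Mmp15 were lost without any 1 Hcy replicate or Veh replicate 2, Sele and Slc9a3r2 without any 1 Hcy replicate, and Thbd without Hcy replicate 2 or 3 or Veh replicate 1 or 2, with adjusted p up to 0.103 from edgeR. In those fits every sign was kept, and the log2 changes ran from 0.39 to 0.45 for Mcam, -0.82 to -0.60 for Sulf1, 0.68 to 0.85 for Mmp15, 0.88 to 1.17 for Sele, -0.52 to -0.43 for Slc9a3r2 and -0.76 to -0.60 for Thbd. Over all tested genes 341 passed with every library and 80 to 957 with 1 library left out, so this background moved as well.

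**Figure D3:**
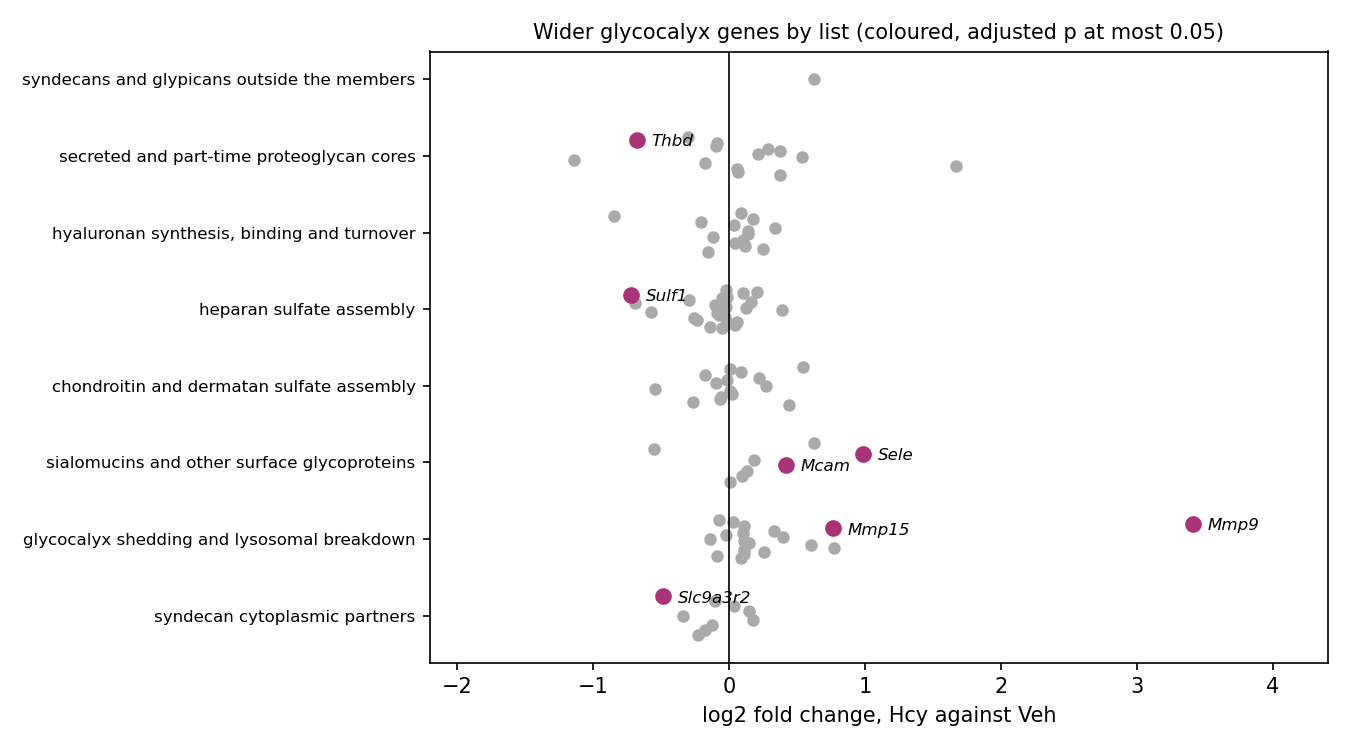
Log2 change in Hcy against Veh for 104 of the 106 tested rows of 8 glycocalyx lists, 1 point per row, with named and coloured points for the 7 genes at an adjusted p of at most 0.05. Most points lie near 0 and Mmp9 is at 3.41. Acan and Ncan, with under 3 counts over the Hcy libraries, are not drawn.

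Heparan sulfate assembly held 24 tested genes, of which 0 rose and 1 fell, with a median log2 change of -0.04. Extl3, a glycosyltransferase of chain assembly, had a log2 change of -0.26 and did not pass (edgeR, adjusted p = 0.577), but did without Veh replicate 3. Sulf1, an extracellular sulfatase that removes sulfate groups from heparan sulfate chains, had 108, 93.2 and 80.3 CPM in Veh replicates 1 to 3 and 54.4, 59.7 and 56.9 CPM in Hcy replicates 1 to 3. The log2 change was -0.72 (SE 0.11, edgeR, adjusted p = 0.0131). Its paralog Sulf2 was at 148 ± 13.9 CPM (SD, n = 3) in Veh and 159 ± 6.50 CPM (SD, n = 3) in Hcy and did not pass (edgeR, adjusted p = 0.688). The chain polymerase genes Ext1 and Ext2 had log2 changes of -0.01 and 0.06. Chondroitin and dermatan sulfate assembly held 15 tested genes, and 0 passed the adjusted p in edgeR or DESeq2 while 3, Chpf2, Ust and Chst7, had an unadjusted p of at most 0.05.

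Among secreted and part-time proteoglycan cores, 1 of 16 tested genes fell and 0 rose. Agrn, which encodes agrin, was at 114 CPM in Veh and 148 CPM in Hcy and did not pass in edgeR (adjusted p = 0.113), but did in edgeR without Veh replicate 3 and in DESeq2. Thbd encodes thrombomodulin, a surface anticoagulant that can carry a chondroitin sulfate chain, and had 69.9, 75.4 and 62.4 CPM in Veh and 47.9, 43.3 and 38.4 CPM in Hcy. The log2 change was -0.68 (SE 0.10, edgeR, adjusted p = 0.0131). The median of this list was -0.02, and 0.06 without Acan, which had 0 counts in Hcy and 0.234 CPM in Veh, near the floor, so no fold is given for it. The only tested gene among the listed syndecans and glypicans beyond the 10 was Gpc2, at 0.814 CPM in Veh and 1.24 CPM in Hcy (edgeR, adjusted p = 0.755), while Gpc3 had 0 counts and Gpc6 had 2 in all.

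In hyaluronan synthesis, binding and turnover, 14 genes beyond the 3 above were tested, and 0 passed the adjusted p in edgeR or DESeq2, while 1, Layn, had an unadjusted p of at most 0.05. Of the other synthases, Has3 was at 0.405 ± 0.148 CPM (SD, n = 3) in Veh and 0.429 ± 0.156 CPM (SD, n = 3) in Hcy, and Has1 had 8 counts over all 6 libraries and was not tested. The hyaluronan receptor Lyve1 was at 145 ± 1.62 CPM in Veh and 148 ± 6.66 CPM in Hcy, and its log2 change was 0.03 beside -0.91 for Cd44. Stab1, a scavenger receptor that binds hyaluronan, was at 283 ± 50.7 and 318 ± 15.7 CPM, and Cemip2, a cell surface protein linked to hyaluronan breakdown, at 285 ± 53.1 and 338 ± 11.5 CPM. Ugdh, which makes the UDP-glucuronic acid from which hyaluronan and heparan sulfate are built, had a log2 change of 0.09 (edgeR, adjusted p = 0.732).

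Among sialomucins and other surface glycoproteins, 2 of 8 tested genes rose and 0 fell. Mcam, an adhesion molecule of endothelium also known as CD146, had 1624, 1523 and 1529 CPM in Veh and 2151, 2024 and 2066 CPM in Hcy (log2 change 0.42, SE 0.06, edgeR, adjusted p = 0.0118). Sele, the selectin that captures leukocytes on activated endothelium, had 19.7, 26.6 and 18.1 CPM in Veh and 41.7, 45.4 and 40.6 CPM in Hcy (log2 change 0.99, SE 0.14, edgeR, adjusted p = 0.0110). The sialomucins Cd34, Emcn and Cd164, of the same kind as Podxl, had log2 changes of 0.09, 0.13 and 0.01 and did not pass.

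In shedding and lysosomal breakdown, 2 of 19 tested rows rose and 0 fell. Mmp9, a gelatinase that can cleave syndecan ectodomains, had 1.31, 0.637 and 0.692 CPM in Veh and 9.12, 6.99 and 12.4 CPM in Hcy (log2 change 3.41, SE 0.33, edgeR, adjusted p = 0.00136). Mmp15, a membrane-type metalloproteinase, had 16.2, 14.7 and 12.7 CPM in Veh and 26.4, 23.4 and 24.4 CPM in Hcy (log2 change 0.76, SE 0.12, edgeR, adjusted p = 0.0136). Hpse, the heparanase that cuts heparan sulfate chains, was at 71.3 ± 6.21 CPM (SD, n = 3) in Veh and 93.6 ± 10.2 CPM (SD, n = 3) in Hcy. It did not pass in edgeR (adjusted p = 0.107) but did in DESeq2. The sheddases Adam10 and Adam17 had log2 changes of 0.09 and 0.11, with adjusted p of 0.800 and 0.632 from edgeR.

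Of 9 tested cytoplasmic partners, 1 fell. Slc9a3r2 encodes the adaptor NHERF2, known for binding the tail of podocalyxin, and had 214.96, 214 and 243 CPM in Veh and 167, 156 and 155 CPM in Hcy (log2 change -0.49, SE 0.08, edgeR, adjusted p = 0.0145). Msn and Ezr, which link CD44 and podocalyxin to actin as moesin and ezrin, had log2 changes of 0.17 and -0.18, with adjusted p of 0.363 and 0.680 from edgeR. Sdcbp, or syntenin, which binds syndecan tails, was at 783 ± 2.50 CPM (SD, n = 3) in Veh and 803 ± 15.6 CPM (SD, n = 3) in Hcy (edgeR, adjusted p = 0.862).

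**Figure D4:**
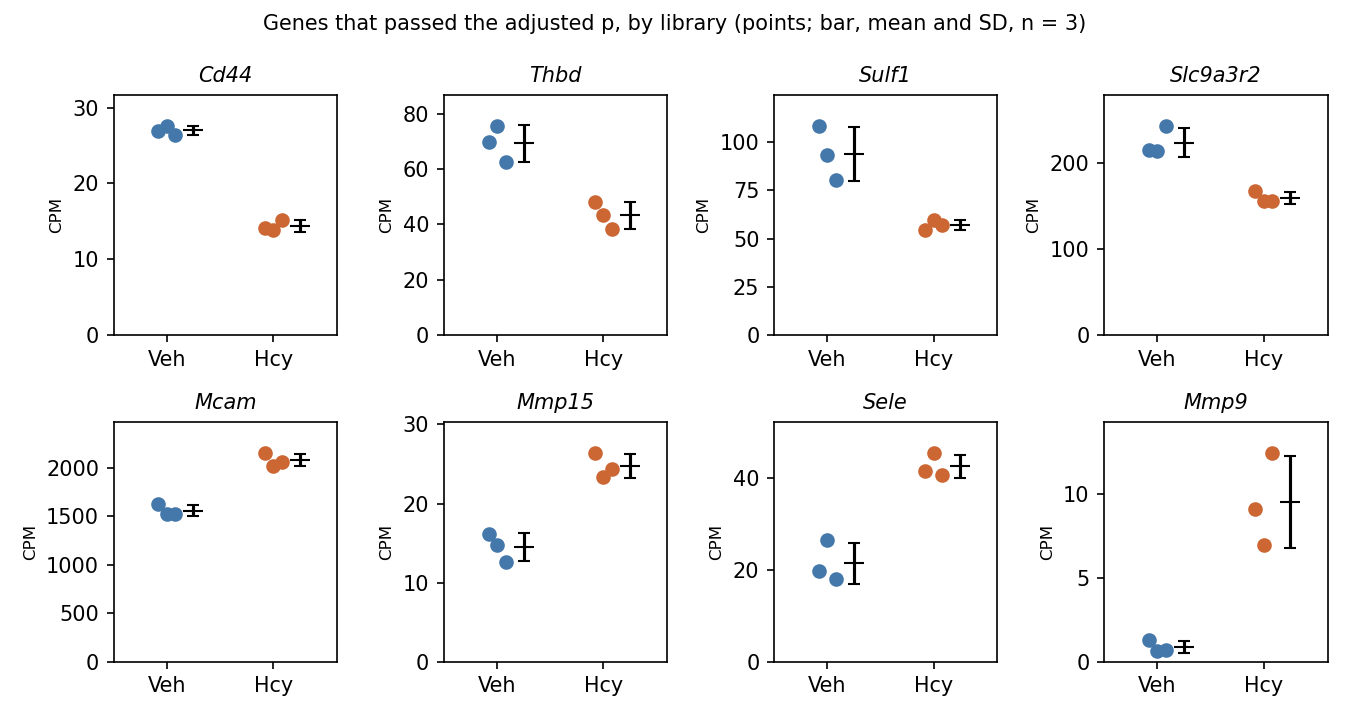
CPM by library for Cd44 and for the 7 genes of the wider lists at an adjusted p of at most 0.05, with 3 points for Veh in blue, 3 for Hcy in orange, and a bar for mean and SD (n = 3) on axes that start at 0. Cd44, Thbd, Sulf1 and Slc9a3r2 are lower and Mcam, Mmp15, Sele and Mmp9 higher in all Hcy libraries.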

How the data were processed

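RNA-seq was analysed in 6 libraries of rBMECs, grouped by their titles. The deposited table holds raw read counts by gene, as the authors counted them and without normalization, together with gene positions and lengths, which were used too. The submitters' processing notes name fastp, HISAT2 2.2.1, StringTie 2.2.3, Cufflinks, featureCounts 2.0.6 and DESeq2 1.42.0, without settings or strand. The study names mRatBN7.2, but listed gene positions reach 282724300 on chromosome 1, beyond its end in that build, so positions are given as listed, with no build. The authors' table of normalized counts, fold changes and p-values was not used.

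Counts were analysed with R 4.3.3 and edgeR 4.0.16: genes with at least 10 summed counts, TMM scaling (factors 0.977 to 1.02) and glmQLFTest with condition as the only term. Standard errors were taken as the log2 change over the root of F, with 95% intervals from the test's degrees of freedom. P-values set the difference between groups against the spread between libraries, and the floor of 3 counts covers counting error only. The fit was tested on simulated data with 200 planted log2 changes of 1 in either direction. Of these edgeR recovered 125 and wrongly called 11 other genes, while DESeq2 recovered 130 and wrongly called 22. With planted log2 changes of 2 edgeR recovered 170 with 8 wrong calls, and DESeq2 167 with 20. No pair of libraries held identical counts.

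The 10 genes, the 8 wider lists and the marker lists were chosen with earlier results of these data known. All 10 genes are described, and of each list at most 4 genes with an adjusted p of at most 0.05, by smallest p, and any past both thresholds. Other list genes named as examples were chosen after their values were seen. Alternatives were DESeq2 1.42.0, its size factors, library totals, other count minimums, the replicate number as a block, unadjusted p, levels without length and leaving out each library. Their use on the wider genes one by one and on the count over all genes was added after seeing the data. Pecam1, Abcb1a and Col1a2 among the markers, and Gpc5, Hspg2, Hpse2, Sgsh and Hgsnat among the lists, were not matched by name. Nherf1 and Nherf2 are newer names of Slc9a3r1 and Slc9a3r2, which were listed and matched under the older ones.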

Additional observations from a re-analysis of the deposited data

How the results depend on the processing

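Cd44 was the 1 glycocalyx gene that passed the adjusted p in each of the alternatives run, and 0 passed both thresholds in any. Its log2 change ran from -0.95 to -0.88 with each library left out and from -0.91 to -0.90 otherwise, with adjusted p from 5.66e-09 in DESeq2 to 0.0275 without Hcy replicate 1. With the replicate number as a block it was -0.91 (adjusted p = 0.00788 from edgeR), and the block changed no call among the 10 genes or the 7 wider genes. Deviations of same-numbered libraries correlated at 0.0237, 0.166 and 0.0581 across genes. Hcy replicates 2 and 3 and Veh replicate 2 correlated best with their own number, and the other libraries did not. With 3 libraries a group these values cannot show whether isolations were shared. The numbers were not taken as pairs, because the sources used here do not say that they mark pairs. With the block 298 genes passed over all.

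With each library left out, the wider genes that passed numbered 1 to 9 and all genes 80 to 957, with 80, 95 and 81 without Hcy replicates 1 to 3 and 151, 123 and 957 without Veh replicates 1 to 3, and DESeq2 gave 582 over all. In the same fits the log2 change ran from -0.18 to 0.33 for Sdc2, -0.031 to 0.083 for Sdc3, -0.30 to 0.22 for Sdc4, -0.55 to 0.26 for Gpc1 and -0.0083 to 0.14 for Podxl, with changes of sign, none past the test, and the cause was not tested. Sdc1, Gpc4, Has2, Cd44 and Hyal2 kept their sign in every fit. The log2 change of Gpc4 ran from 0.029 to 0.104 with each library left out, and that of Sdc1 from -0.63 to -0.35. For Has2 and Hyal2 the ranges were -0.88 to -0.31 and -0.22 to -0.12. Gpc1 had too few counts for edgeR's filterByExpr and has no value there. The order of levels in Veh was the same without gene length. Depth limits Gpc1, Has2 and Sdc2, with 2 to 21 counts a library.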
